A study of Caenorhabditis elegans with 20 samples.

Results

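Animals that lack the nuclear hormone receptor gene nhr-114 (Δnhr-114) were compared with wild type animals on a diet low in vitamin B12, with no methionine added. The comparison used every untreated library of either genotype in the first experiment of the study, 4 of the 20 samples in the series, and covered 10948 of the 39341 genes in the deposited table. These genes reached at least 5 CPM (counts per 1000000 counted reads) in at least 2 of the 8 libraries of that experiment, so a gene could also enter through a single group in which it was high. The other 28393 genes were not tested.

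RNA came from whole Caenorhabditis elegans labelled as L4, the last larval stage, and not from a dissected tissue, so fewer cells of a type and less RNA per cell cannot be told apart. Wild type animals were strain VL749 and Δnhr-114 animals strain VL1127. Both carried the array wwIs24, in which the acdh-1 promoter drives GFP (Pacdh-1::GFP) beside a rescuing unc-119(+) copy. VL1127 carried the gk849 allele of nhr-114 in addition, so the mutant is a single allele. Before the experiment the worms were kept with 0.64 nM vitamin B12, and synchronized larvae were then grown for 48 hours on Escherichia coli OP50 on plates made with soy peptone. The same genotypes with 25 mM methionine gave 4 further libraries, which are used below only to ask whether the difference between genotypes was also seen there. Each group had 2 libraries, given as biological replicates.

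Vitamin B12 is a cofactor of methionine synthase in the cycle of methionine and S-adenosylmethionine (Met/SAM) and of methylmalonyl-CoA mutase in the canonical breakdown of propionate. The cycle makes S-adenosylmethionine, the methyl donor for phosphatidylcholine synthesis and for many other reactions. When vitamin B12 is low, C. elegans turns on an alternative route of propionate breakdown, the propionate shunt. NHR-114 is a member of the large nematode family of nuclear hormone receptors, transcription factors of which many act in intestinal metabolism. The comparison asks which transcripts differ between animals with and without this receptor when vitamin B12 is scarce. The paper reports that Δnhr-114 animals on the low vitamin B12 diet develop slowly and are sterile, and that added methionine rescues this. All animals were grown for the same time, so a delay in development could differ along with genotype in the untreated comparison. Its part in the differences below was not tested.

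The 4 libraries held 11240800 to 13823405 reads, so that 3 reads, the most that a count of 0 allows, correspond to 0.217 to 0.267 CPM. This floor covers counting error only. Replicates differed by far more than counting error, with a Pearson correlation of log2(CPM + 1) across genes of 0.885 in wild type and 0.826 in Δnhr-114. Genes are not independent replicates. Markers of developmental stage separated the Δnhr-114 libraries. Yolk protein genes (vit-1 to vit-6) summed to 52.8 and 26.3 CPM in wild type, 67.97 CPM in replicate 1 and 3278 CPM in replicate 2 of Δnhr-114. For 17 oocyte and eggshell genes the sums were 2446 and 508 CPM in wild type and 605 and 7279 CPM in Δnhr-114, and for 10 molting genes 1759 and 1108 CPM against 2186 and 155 CPM. Replicate 2 of Δnhr-114 thus stood apart in 3 marker lists, high for yolk and oocyte genes and low for molting genes. The wild type libraries also differed from each other, in oocyte genes as given and in collagens. The 175 listed collagens summed to 52954 and 26617 CPM in wild type and 39066 and 39482 CPM in Δnhr-114. The part of these differences in the results was not tested, and results are given without replicate 2 of Δnhr-114 where it matters. Intestinal markers were present in every library, at sums of 2751 to 4704 CPM.

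**Figure D1:**
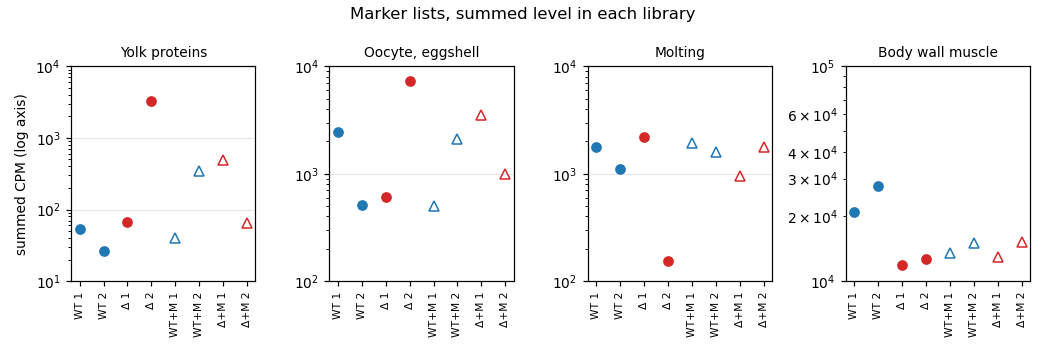
Summed CPM (log axis) of the yolk protein, oocyte and eggshell, molting and body wall muscle lists in each library, with wild type in blue, Δnhr-114 (Δ) in red, untreated libraries as filled circles and libraries with methionine (+M) as open triangles. Replicate 2 of untreated Δnhr-114 lies apart at 3278 CPM for yolk proteins and 155 CPM for molting genes, while the muscle list is lower in both Δnhr-114 libraries through unc-54. Without unc-54 its sums were 7668 and 10810 CPM in wild type and 7847 and 5807 CPM in Δnhr-114, which overlap.

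No gene was called by limma at the study's thresholds, an adjusted p under 0.01 and a fold change over 1.5 (0 of 10948 genes, 0%). At an unadjusted p under 0.05 limma had 496 genes. EdgeR on the recovered reads also called 0 genes (464 before adjustment), and DESeq2, which the study used, called 52 genes higher in Δnhr-114 (0.475% of those tested) and 33 lower (0.301%). The DESeq2 count depended on single libraries: 85 genes in all became 41 without replicate 1 of wild type and 268 without replicate 1 of Δnhr-114. Without replicate 2 of Δnhr-114, the library with high yolk and oocyte transcripts, DESeq2 called 31 genes higher and 27 lower, and 49 of these were among the 85. In what follows, "called" refers to DESeq2 and its Benjamini-Hochberg adjusted p, and limma's own values are given for the genes described in full. DESeq2 was an alternative to the main test, limma, and made more false calls than limma or edgeR on simulated data. Calls of single genes are followed below without replicate 2 of Δnhr-114 only. A call kept without that library may be lost without another.

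At an adjusted p under 0.05, limma had 6 genes (0.0548%). These were msra-1, pmp-5, nhr-114 and clec-47, lower in Δnhr-114, and warf-1 and F48C1.9, higher. The count fell to 0 or 3 when any 1 of the 8 libraries was left out, 3 being the value without replicate 1 of wild type with methionine. A second description used the libraries themselves. A gene was counted as set apart when the lowest library of the higher group exceeded 1.5 times the highest library of the other. By this measure 323 genes (2.95%) were higher in Δnhr-114 and 109 (0.996%) were lower. Of the 85 called genes, 82 were set apart. Higher genes made up 74.8% of those set apart with the values as deposited and 63.3% (245 higher, 142 lower) after scaling by TMM (trimmed mean of M-values). The median log2 change of all genes was 0.10 as deposited and -0.00 under TMM, and the medians of gene lists below are to be read against it.

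**Figure D2:**
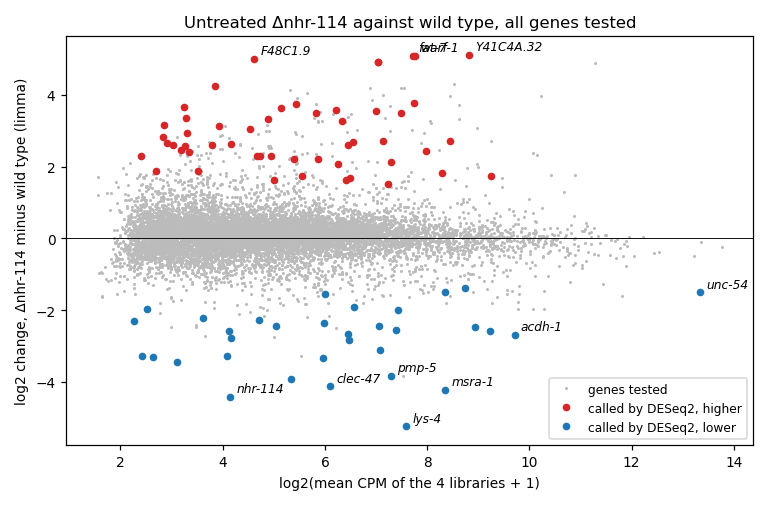
The log2 change between untreated Δnhr-114 and wild type (limma, log2(CPM + 1) scale) against the mean level of the 4 libraries (log2 axis), 1 point per gene tested. The 52 genes called higher by DESeq2 are in red and the 33 called lower in blue, the most abundant of them being unc-54.

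The transcript of the deleted gene checked the labels. nhr-114 (WBGene00003704, forward strand of chromosome V in WBcel235, 4187202 to 4190008) measured 29.0 and 36.6 CPM in wild type and 0.445 and 0.703 CPM in Δnhr-114, the latter resting on 5 and 9 reads. Both mutant libraries were therefore near the floor, as their labels say. The log2 change was -4.42 (SE 0.38, limma adjusted p = 0.0338, DESeq2 adjusted p = 7.37e-20). The gene lies inside Y45G5AM.9, which is annotated on the opposite strand. Y45G5AM.9 reached 32.4 and 25.9 CPM in wild type and 32.4 and 46.1 CPM in Δnhr-114, with overlap between the groups.

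The transcript with the lowest adjusted p in limma was msra-1 (WBGene00018393, chromosome II, 7363220 to 7364040), which encodes a methionine sulfoxide reductase and returns oxidized methionine to the pool. It had 724 and 516 CPM in wild type and 36.1 and 27.6 CPM in Δnhr-114. The means of 620 ± 147 and 31.8 ± 6.05 CPM (SD, n = 2) differed 19.5-fold. On the log2 scale the change was -4.23 (SE 0.28; limma adjusted p = 0.019). Both mutant libraries lay below every wild type value. pmp-5 (WBGene00004062, chromosome V, 6662191 to 6665813), a transporter of vitamin B12, stood at 328 and 251 CPM in wild type and 14.2 and 25.9 CPM in Δnhr-114. Its log2 change was -3.83 (SE 0.34, limma adjusted p = 0.0338). Cystathionine beta synthase, the product of cbs-1, draws homocysteine out of the cycle, and here the direction was the opposite. The gene measured 13.4 and 13.3 CPM in wild type and 52.5 and 46.5 CPM in Δnhr-114. The log2 change of 1.81 (SE 0.40) was not called (DESeq2 adjusted p = 0.027).

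Of 6 genes for enzymes of the cycle, 4 were set apart below wild type (0.996% of all genes were). Of the 6, 1 was called, mtrr-1 (0.301% of all genes were called lower). The median log2 change was -1.31. mtrr-1, methionine synthase reductase, reached 147 and 150.4 CPM in wild type and 32.9 and 44.97 CPM in Δnhr-114 (log2 change -1.92, SE 0.29, DESeq2 adjusted p = 1.73e-06). metr-1, methionine synthase, was at 332 and 336 CPM against 155 and 100.4 CPM, and mthf-1, methylenetetrahydrofolate reductase, at 325 and 444 CPM against 147 and 121 CPM. mel-32, serine hydroxymethyltransferase, had 197 and 173 CPM in wild type and 74.1 and 84.7 CPM in the mutant. For these 3 genes the libraries of the genotypes did not overlap, but none was called. The S-adenosylhomocysteine hydrolase gene ahcy-1 (3893 and 5662 CPM against 2662 and 2888 CPM) and the S-adenosylmethionine synthase gene sams-1 (305 and 626 CPM against 264 and 257 CPM) were lower by less than the 1.5-fold gap. The paralogs sams-3, sams-4 and sams-5 did not follow sams-1, with 0 of 3 set apart and a median log2 change of 0.50. Of 9 folate enzymes and transporters, 0 were set apart.

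Among 5 genes of the propionate shunt, 1 was called and 3 were set apart. Over all genes 0.301% were called lower and 0.996% were set apart lower. The median log2 change of the 5 genes was -0.96. acdh-1, the acyl-CoA dehydrogenase gene that starts the shunt, stood at 1703 and 1204 CPM in wild type and at 200.2 and 243 CPM in Δnhr-114, a 6.55-fold difference (log2 change -2.69, SE 0.30, limma adjusted p = 0.0639, DESeq2 adjusted p = 2.9e-08). ech-6, an enoyl-CoA hydratase gene, was at 994 and 725 CPM against 310 and 439 CPM, and hphd-1, a 3-hydroxypropionate-oxoacid transhydrogenase gene, at 120.0 and 105 CPM against 59.6 and 54.5 CPM. These were the 3 set apart, all lower, and acdh-1 was the one called. nhr-68, which encodes a receptor known to activate the shunt, measured 103 and 84.7 CPM in wild type and 30.1 and 32.8 CPM in Δnhr-114. It was called (log2 change -1.55, DESeq2 adjusted p = 0.000845) and lost the call without replicate 2 of Δnhr-114. nhr-10, its partner in that circuit, was at 33.6 and 56.7 CPM against 57.9 and 38.6 CPM, with overlapping libraries. Of the 6 genes of the canonical pathway, mmaa-1, which acts on the vitamin B12 cofactor of the mutase, was set apart, at 119 and 147 CPM in wild type and 33.8 and 66.4 CPM in the mutant. It lies 52 bases from farl-11 on the same strand of chromosome II. farl-11 was itself called lower, at 284 and 260.2 CPM against 54.4 and 84.6 CPM (DESeq2 adjusted p = 5.92e-07).

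Of the fatty acid desaturase genes, fat-7, fat-5 and fat-2 were called higher in Δnhr-114. fat-5, fat-6 and fat-7 encode the Δ9 desaturases, which make monounsaturated fatty acids, and fat-2 encodes the Δ12 desaturase that acts next. fat-7 (WBGene00001399, chromosome V, 7151353 to 7153146) reached 9.12 and 10.3 CPM in wild type and 221 and 595 CPM in Δnhr-114. Its mean was 42.1-fold higher (log2 change 5.09, SE 0.73, limma adjusted p = 0.122, DESeq2 adjusted p = 2.56e-10). fat-5 rose from 48.5 and 14.7 CPM to 290 and 495 CPM (log2 change 3.77, SE 0.82, DESeq2 adjusted p = 0.00127), a call lost without replicate 2 of Δnhr-114. The most abundant of the 3, fat-6, had 783 and 480 CPM in wild type and 2340 and 1856 CPM in Δnhr-114, and narrowly missed the threshold (log2 change 1.76, SE 0.29, DESeq2 adjusted p = 0.0123). fat-6 and fat-7 are similar in sequence, and reads of one may be counted to the other. fat-2 was at 255 and 304 CPM against 1126 and 757 CPM (log2 change 1.73, SE 0.24, DESeq2 adjusted p = 0.00233).

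Across 14 genes of fatty acid synthesis, elongation and desaturation, 5 were set apart, all higher (2.95% of all genes were). Of these 5, 3 were called, against 0.475% of all genes called higher, and the call of fat-5 rested on replicate 2 of Δnhr-114. The fifth gene set apart was the elongase gene elo-2, at 208 and 507 CPM in wild type and 896 and 1226 CPM in Δnhr-114. The list's median log2 change was 0.84 (0.73 under TMM), and its summed level was 3632 and 4596 CPM in wild type against 9457 and 9277 CPM in Δnhr-114. fat-1, fat-3 and fat-4, the later desaturases of polyunsaturated fatty acid synthesis, had log2 changes of 0.31, 0.87 and 0.81, and none was set apart. Fatty acid synthase, fasn-1, was at 47.5 and 84.2 CPM against 101 and 50.4 CPM, and the lipogenic regulator gene sbp-1 was at 4.70 and 5.48 CPM against 6.76 and 8.51 CPM.

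The called genes also included 3 of lipid metabolism that stood in no list and were picked after their values were seen. hacd-1, a hydroxyacyl-CoA dehydrogenase gene, stood at 50.0 and 64.5 CPM in wild type and 247 and 259 CPM in Δnhr-114 (log2 change 2.14, SE 0.28, DESeq2 adjusted p = 2.26e-05). plin-1, the perilipin of lipid droplets, was at 166 and 109 CPM against 459.8 and 509 CPM (log2 change 1.83, SE 0.31, DESeq2 adjusted p = 0.0019). fard-1, a fatty acyl-CoA reductase gene, was at 12.2 and 17.4 CPM against 42.4 and 52.9 CPM. The calls of plin-1 and fard-1 were lost without replicate 2 of Δnhr-114. That of hacd-1 was kept there, but was lost when another of the compared libraries was left out. Phosphatidylcholine is made in worms from phosphoethanolamine, methylated by pmt-1 and pmt-2, or from choline through choline kinases and pcyt-1. The choline kinase gene ckb-2 measured 20.6 and 21.2 CPM in wild type and 70.5 and 72.5 CPM in Δnhr-114 (log2 change 1.73, SE 0.26, DESeq2 adjusted p = 2.95e-05). pmt-1 was at 319 and 430 CPM against 1285 and 779 CPM, and pcyt-1 at 48.8 and 61.2 CPM against 109 and 150.1 CPM. These 3 of 8 genes of phosphatidylcholine synthesis were set apart, all higher (2.95% of all genes were). Of the 3, ckb-2 was the one called, against 0.475% of all genes called higher. pmt-2, which acts after pmt-1, overlapped between the genotypes, at 321 and 414 CPM against 274 and 346 CPM.

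**Figure D3:**
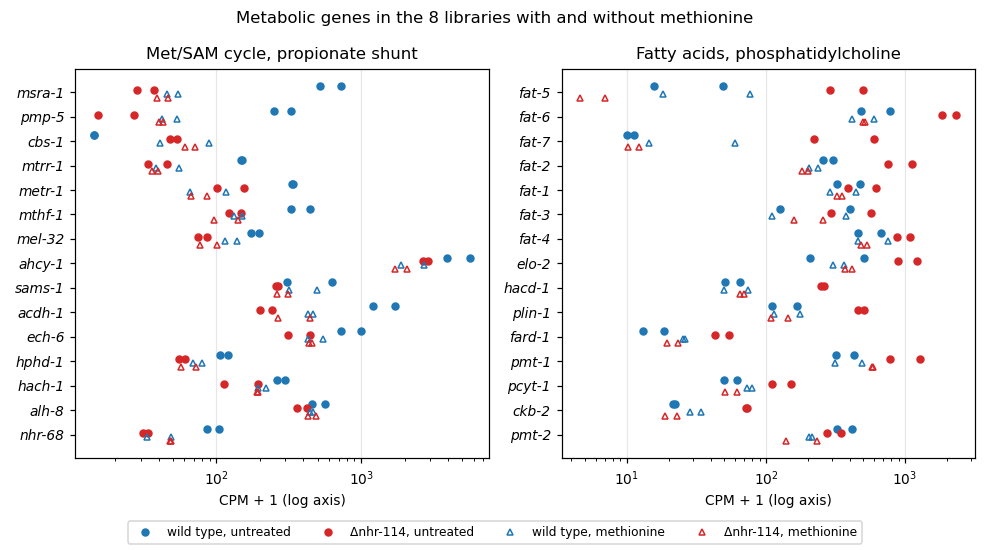
CPM + 1 (log axis) of genes of the propionate shunt and the Met/SAM cycle on the left and of fatty acid and phosphatidylcholine genes on the right, with 1 point per library. Filled circles are untreated and open triangles are with methionine, wild type in blue and Δnhr-114 in red. msra-1, pmp-5 and acdh-1 are lower in untreated Δnhr-114 than in wild type, and fat-5, fat-6, fat-7 and fat-2 are higher, whereas with methionine most points of the genotypes lie together.

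Some lysozyme and protease genes were lower in Δnhr-114. Lysozymes cut bacterial cell walls, and in worms many are made by the intestine. Of 10 lysozyme genes tested, 4 were called lower (0.301% of all genes were), with and without replicate 2 of Δnhr-114. Of these 4, lys-4, lys-5 and lys-6 are neighbours that may share reads. Another 4 of the 10 had log2 changes above 0, none of them called. lys-4 reached 297 and 453 CPM in wild type and 12.8 and 5.86 CPM in Δnhr-114, a 40.2-fold difference (log2 change -5.24, SE 0.66, limma adjusted p = 0.0973, DESeq2 adjusted p = 3.32e-11). Its neighbours on chromosome IV followed. lys-5, at a distance of 1077 bases, had 8.54 and 8.78 CPM in wild type and had 0 reads in both Δnhr-114 libraries, at least 32.4-fold lower against the floor of 3 reads per library. lys-6, 1327 bases further, was at 17.6 and 12.2 CPM against 0.534 and 0.312 CPM. Reads of these 3 similar genes may have been split between them. On the X chromosome, the invertebrate-type lysozyme gene ilys-5 stood at 1167 and 884 CPM in wild type and 138 and 209 CPM in Δnhr-114 (log2 change -2.57, SE 0.30, DESeq2 adjusted p = 9.38e-08). The lysozyme gene lys-1 (1097 and 1442.5 CPM against 1297 and 1338 CPM) overlapped, and lys-7 was at 166 and 217 CPM against 308 and 392 CPM.

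Among 17 aspartyl and cathepsin B-like protease genes, 4 were set apart below wild type and 1 above, against 0.996% and 2.95% of all genes. Called lower were 2 of the 17 (0.301% of all genes were). asp-13 had 244 and 325 CPM in wild type and 41.5 and 54.03 CPM in Δnhr-114, and asp-2 at 462 and 500.0 CPM against 197 and 144 CPM. Both were called (DESeq2 adjusted p = 2.75e-06 and 0.00087), asp-2 not without replicate 2 of Δnhr-114. asp-3 (1040.4 and 1000.3 CPM against 602 and 502 CPM) and asp-6 (1278 and 1701 CPM against 839 and 608 CPM) were set apart and not called, and asp-17, at 2.39 and 19.2 CPM in wild type and 36.1 and 49.5 CPM in Δnhr-114, was the gene that was higher. Both directions were also seen among 60 C-type lectin genes, with 6 set apart lower and 5 higher. clec-47 and clec-169 were called. clec-47 had 121 and 135 CPM in wild type and 9.07 and 4.45 CPM in Δnhr-114 (log2 change -4.12, SE 0.38, limma adjusted p = 0.0338). clec-169 had 140.2 and 14.2 CPM against 2.67 and 1.56 CPM, a larger fold of the means (36.5) than that of clec-47 (19.0), with wild type libraries far apart. Its call was lost without replicate 2 of Δnhr-114.

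Further genes that were lower belonged to no list. fog-3, which promotes sperm fate in the germline, reached 974 and 689 CPM in wild type and 134 and 162 CPM in Δnhr-114 (log2 change -2.47, SE 0.38, DESeq2 adjusted p = 8.35e-05). Of 29 major sperm protein genes and 12 spe genes, 0 were set apart or called. All 29 of the former had log2 changes below 0 (median -0.39, against 0.10 for all genes), as did 8 of the 12 spe genes. Over all genes 4441 of 10948 did. The major sperm protein genes may share reads, as msp-19 and msp-53 had nearly the same CPM in each library, so they are not separate observations. The sums of the 31 listed were 7529 and 2953 CPM in wild type and 2723 and 5113 CPM in Δnhr-114, which overlap. nspe-1, of a family of nematode-specific peptides, was at 185 and 124 CPM against 15.6 and 26.3 CPM, and nspe-2 at 21.8 and 39.0 CPM against 2.40 and 4.68 CPM. Uncharacterised genes in this group were T05E12.6 (146 and 155 CPM against 20.3 and 25.3 CPM) and DH11.2 (122 and 88.7 CPM against 18.1 and 21.2 CPM). spp-4, a saposin-like gene, was at 41.1 and 43.1 CPM against 7.21 and 8.59 CPM, and pho-13, an acid phosphatase gene, at 33.2 and 24.5 CPM against 3.38 and 4.61 CPM. All of the single genes given in this paragraph with values were called.

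Among the genes that were higher, warf-1, which encodes a GTPase of the ARF family, had the lowest adjusted p in limma. It had 11.1 and 11.4 CPM in wild type and 463 and 375 CPM in Δnhr-114, a 37.3-fold difference of the means (log2 change 5.09, SE 0.40, limma adjusted p = 0.0289). F48C1.9 was at 0.651 and 0.338 CPM, or 9 and 4 reads, in wild type and at 43.9 and 49.3 CPM in Δnhr-114. Y41C4A.32 was at 21.9 and 26.7 CPM against 849 and 902 CPM, a 36.0-fold difference, and F11D11.3 at 0.362 and 0.506 CPM against 28.4 and 24.5 CPM. The function of these 3 genes is not known from the annotation used. dod-21 and its neighbour cld-1, 466 bases apart on opposite strands of chromosome IV, had nearly the same values in each library: 4.27 and 11.98 CPM in wild type and about 290 and 213 CPM in Δnhr-114 for both. Their reads cannot be told apart, and the pair counts as 1 observation.

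Other called genes that were higher have known functions. cth-1, cystathionine gamma-lyase, which acts after CBS-1 in cysteine synthesis, stood at 26.4 and 30.2 CPM in wild type and 113 and 132 CPM in Δnhr-114 (log2 change 2.07, SE 0.34, DESeq2 adjusted p = 0.000157). It lost its call without replicate 2 of Δnhr-114, and the other 7 genes of transsulfuration and glutathione synthesis that were tested were not set apart. cdr-4, a cadmium-responsive gene, was at 50.5 and 116 CPM against 431 and 409 CPM, and argk-1, arginine kinase, at 2.10 and 1.86 CPM against 34.9 and 18.3 CPM. The long noncoding RNA tts-1 measured 57.3 and 125.6 CPM in wild type and 831 and 386 CPM in Δnhr-114 (log2 change 2.72, SE 0.47, DESeq2 adjusted p = 0.000845). Of 24 glutathione transferase genes, 6 were set apart, all higher (2.95% of all genes were), and gst-38 was the one called (0.475% of all genes were called higher), at 3.54 and 4.22 CPM against 15.6 and 18.6 CPM. The insulin-like gene ins-20 was at 0.217 and 0.759 CPM against 11.4 and 12.6 CPM. It was the one neuropeptide or insulin-like gene called, of 111 tested. The calls of cdr-4, gst-38 and ins-20 were lost without replicate 2 of Δnhr-114. Those of argk-1 and tts-1 were kept there, but each was lost when another of the compared libraries was left out.

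**Figure D4:**
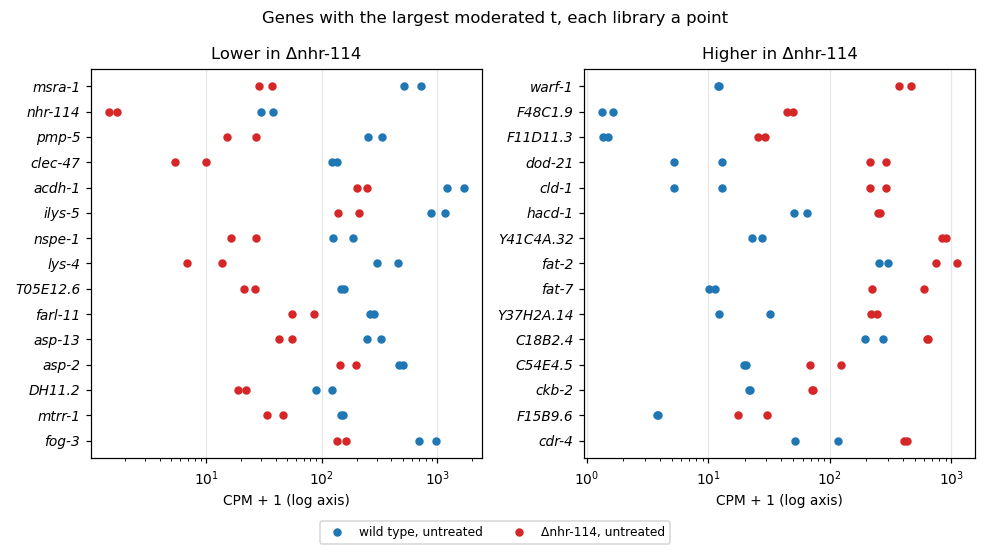
CPM + 1 (log axis) of the 15 genes with the largest negative and the 15 with the largest positive moderated t in limma, among genes set apart with at least 20 CPM in the higher group. Wild type is in blue and Δnhr-114 in red, with 1 point per untreated library, and the genotypes do not overlap for any of the 30 genes because the rule required it.

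A group of 7 called genes was at least 10 times higher in replicate 2 of Δnhr-114 than in replicate 1. These were vit-4, the collagens col-95 and col-101, ule-1, Y62H9A.3, ZK813.1 and ZK813.3. vit-4 reached 3.11 and 1.52 CPM in wild type and 4.27 and 285 CPM in Δnhr-114. col-101 was at 5.93 and 7.68 CPM against 10.2 and 691 CPM. None of the 7 was called without that library, in which yolk and oocyte transcripts were high as given above. Their dependence on the receptor was not tested apart from it.

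The largest abundance change among called genes was in unc-54, the major body wall myosin heavy chain, at 13313 and 17021 CPM in wild type and 4091 and 6905 CPM in Δnhr-114 (log2 change -1.50, SE 0.27, DESeq2 adjusted p = 0.0049). The other 9 body wall muscle genes had log2 changes of -0.75 to -0.09, and 0 of them was set apart. myo-3, another body wall myosin, was at 70.2 and 77.9 CPM against 76.3 and 29.9 CPM. acdh-1, whose promoter drives the reporter carried by all animals, was lower in the same libraries. The 3′ end of the reporter transcript is not given in the sources used here, and its part in the unc-54 count was not tested. unc-119, whose rescuing copy is carried with the reporter, had 593 and 644 CPM in wild type and 217 and 256 CPM in Δnhr-114 (log2 change -1.39, SE 0.24, DESeq2 adjusted p = 0.00642). Without replicate 2 of Δnhr-114 the call of unc-119 was lost and that of unc-54 was kept. The call of unc-54 was lost when another of the compared libraries was left out. Reads of the transgene and of the chromosomal gene cannot be told apart, and 10 neuron markers had a median log2 change of -0.00.

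Other families were counted in the same way, against 2.95% of all genes set apart higher and 0.996% lower. Of 77 cytosolic ribosomal protein genes, 50 histone genes, 20 germline genes and 7 intestinal markers, 0 were set apart and 0 were called. Among 92 nuclear hormone receptor genes outside the named regulators, 1 was set apart higher and 1 lower. For 127 cuticle collagens the counts were 5 higher and 2 lower, and among 42 UDP-glucuronosyltransferases 5 higher and 1 lower. Infection-response genes were set apart in 3 of 8 cases, all higher, with none called: irg-2 was at 3.62 and 5.82 CPM against 34.3 and 16.8 CPM. Of 13 endoplasmic reticulum chaperone and stress genes, 1, ire-1, was set apart (43.9 and 44.6 CPM against 72.6 and 67.0 CPM). The mitochondrial chaperone list had 0 of 2 set apart. Of 10 heat shock genes, 3 were set apart, all higher, and 0 were called: hsp-16.2 was at 3.04 and 1.94 CPM against 7.38 and 5.54 CPM. The other two are copies of hsp-16.1 with the same values in each untreated library, 13.9 and 12.5 CPM against 33.8 and 46.9 CPM, and cannot be told apart.

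The genotypes were also compared with methionine, in libraries that share no sample with the untreated ones. With limma 0 genes passed there (94 before adjustment), with edgeR 0 (88), and with DESeq2 3, all lower (0.0274%). By the libraries, 90 genes (0.822%) were set apart higher and 55 (0.502%) lower, against 323 and 109 untreated. Wild type replicate 2 with methionine had 1389117 reads, the fewest of the 8. Stage markers also differed between replicates with methionine. Yolk protein genes summed to 39.4 and 348 CPM in wild type and 494 and 64.7 CPM in Δnhr-114. For oocyte and eggshell genes the sums were 502 and 2111 CPM against 3553 and 1003 CPM. Molting genes differed less, at 1935 and 1599 CPM against 946 and 1768 CPM. The part of this in the results with methionine and in the interaction was not tested. Nor was the part of the rescue of slow development by methionine that the paper reports. The difference between the contrasts was tested as an interaction. With limma 0 genes passed (234 before adjustment at p under 0.05), with edgeR 0 (225), and with DESeq2 22 (0.201%). All 22 were among the 85 genes called untreated, 11 higher and 11 lower. The interaction contains the untreated difference in the same libraries, so this overlap follows in part from how it is computed.

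The 52 genes called higher untreated had a median log2 change of 2.66 there and of -0.10 with methionine, and 21 of the 52 kept the sign. The 33 called lower had medians of -2.57 and -0.24, and 21 of the 33 kept the sign. Both sets were chosen by their untreated change, so smaller medians with methionine follow in part from that choice. fat-7 stood at 13.4 and 59.0 CPM in wild type and 11.3 and 9.15 CPM in Δnhr-114 with methionine, and fat-5 at 17.1 and 75.6 CPM against 6.01 and 3.64 CPM. For both, the difference between genotypes depended on methionine by DESeq2 (interaction, adjusted p = 7.78e-09 and 1.12e-06). By limma neither interaction passed (adjusted p = 0.529 and 0.587). msra-1 had 44.8 and 53.3 CPM in wild type and 37.9 and 45.1 CPM in Δnhr-114 with methionine, and lys-4 at 32.6 and 114.5 CPM against 57.8 and 97.8 CPM (interaction adjusted p = 2.12e-10 and 3.26e-05).

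On both media DESeq2 called 3 genes, all lower: nhr-114, F28E10.1 and F17A9.4. F28E10.1 was at 9.26 and 11.2 CPM in untreated wild type and 0.178 and 0.0781 CPM, or 2 reads and 1 read, in Δnhr-114. With methionine it was at 13.1 and 5.76 CPM against 0.175 and 0.245 CPM. F17A9.4 had 5.43 and 11.1 CPM in untreated wild type against 1.51 and 1.015 CPM, with 14.98 and 10.8 CPM against 1.11 and 0.899 CPM on methionine. Its untreated call was lost without replicate 2 of Δnhr-114. Others were set apart on both media but not called with methionine. nspe-1 was at 183 and 156 CPM against 61.8 and 59.6 CPM with methionine, and dod-21 at 54.3 and 161 CPM against 358 and 304 CPM. Y43C5A.2 was at 3.76 and 15.9 CPM in untreated wild type and 107 and 94.4 CPM in untreated Δnhr-114, with 6.41 and 20.2 CPM against 91.5 and 133 CPM in the presence of methionine, and its untreated call was lost without replicate 2 of Δnhr-114 (DESeq2 adjusted p = 0.049). In all, 11 genes were set apart higher on both media and 5 lower, nhr-114 included.

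**Figure D5:**
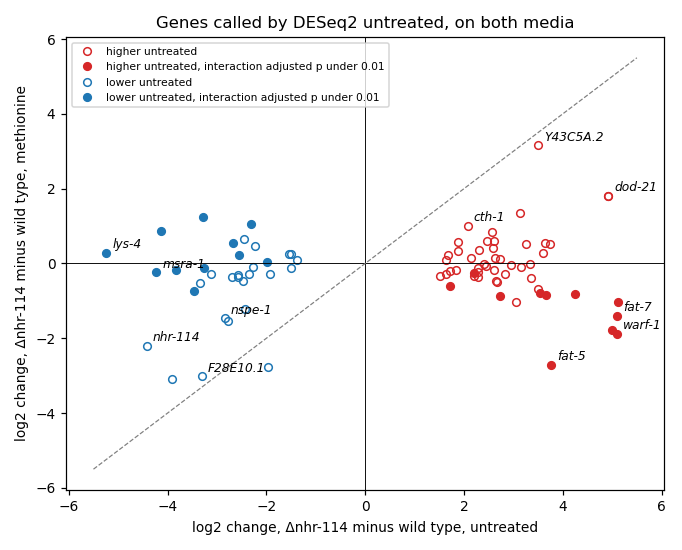
The log2 change between Δnhr-114 and wild type with methionine (vertical) against that without (horizontal) for the 85 genes called untreated by DESeq2, higher in red and lower in blue. Filled points have a DESeq2 interaction adjusted p under 0.01, and the dashed line marks equal changes. Most points lie near 0 on the vertical axis, while F28E10.1 and Y43C5A.2 lie close to the dashed line. The genes were chosen by their untreated change, which by itself favours larger values on the horizontal axis.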

How the data were processed

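The authors made libraries with a modified Cel-seq2 protocol, which reads the 3′ ends of transcripts, trimmed reads with Trimmomatic 0.32, aligned them with STAR and counted them with ESAT. ESAT used a WormBase annotation from which pseudogenes had been removed, and treated multimapped reads as normal reads, so near-identical genes can share reads. The strand setting is not given in the sources used here. The deposited table was named TPM, but the deposited values are CPM: they sum to 1000000 in each library, and 100% of them were whole multiples of 1 step per library (within 0.1 reads), so whole reads were recovered. ESAT was run with a setting for molecular identifiers, while the study speaks of read counts, so each step may stand for 1 read or 1 molecule. Of the 39341 genes, 39258 were found in the annotation (WBcel235, Ensembl release 115). Depth ran from 1389117 to 24482380 reads over the 8 libraries, and precision was limited by the spread of 2 libraries a group more than by counting.

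The main test was limma 3.58.1 (R 4.3.3, two-sided, trend and robust settings) on log2(CPM + 1), with 1 mean per group over 8 libraries (4 residual degrees of freedom) and Benjamini-Hochberg adjustment over the 10948 genes that reached 5 CPM in 2 or more libraries. Log2 changes are on that scale, which understates those of low genes. Genes were called at an adjusted p under 0.01 and a fold change over 1.5. The same thresholds were used for edgeR 4.0.16 (quasi-likelihood) and DESeq2 1.42.0 on recovered reads, given as alternatives because the deposited unit was CPM. The pipeline was tested on simulated data, where DESeq2 recovered more of the changed genes and made more false calls than limma or edgeR. P-values measure the spread between these libraries. An exact permutation test of 2 against 2 cannot go below 0.333 and was not used.

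Named genes were the members of the Met/SAM, folate, transsulfuration, phosphatidylcholine, fatty acid, propionate and regulator lists, up to 15 genes a direction with the largest moderated t among genes set apart by 1.5-fold with at least 20 CPM in the higher group, and up to 4 abundant members of each other list. Other called genes and set-apart members were named after their values were seen. Members and lists were chosen with earlier results of these data known. No sequence is shown. Alternatives were the pseudocount, the filter, TMM scaling, the libraries fitted, the trend, a replicate block, the tool, the threshold and leaving out each library. The counts at an adjusted p under 0.05, the untreated and interaction DESeq2 counts without 1 library and the set-apart counts under TMM were added after seeing the data. Taking the called genes from DESeq2 was not planned, as limma was the planned main test.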

Additional observations from a re-analysis of the deposited data

Results flagged for a closer look

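For 22 genes the difference between Δnhr-114 and wild type differed between untreated animals and those given methionine by DESeq2's interaction test. Each value is the log2 change untreated minus that with methionine. Limma called none of them (0 of 10948 genes). Lower relative to wild type when untreated were the lysozyme genes lys-5 (-9.31), lys-4 (-5.52) and lys-6 (-4.32), the lectin gene clec-47 (-5.44), the methionine sulfoxide reductase gene msra-1 (-4.12), the vitamin B12 transporter gene pmp-5 (-3.74), the protease gene asp-13 (-2.93), farl-11 (-2.08), and the genes F54B11.11 (-5.93), F54D8.10 (-5.16) and T05E12.6 (-3.43). The value of lys-5 rests on 0 reads in both untreated Δnhr-114 libraries and is not a bound. Higher relative to wild type when untreated were the desaturase genes fat-7 (7.08) and fat-5 (6.81), the choline kinase gene ckb-2 (2.31), the ARF GTPase gene warf-1 (7.13), the long noncoding RNA tts-1 (3.56), and the genes F48C1.9 (9.36), F11D11.3 (7.16), F22E5.6 (7.05), Y41C4A.32 (6.05), Y37H2A.14 (4.21) and C54E4.5 (2.52). Replicate 2 of wild type with methionine, the library with the fewest reads (1389117), had 75.6 CPM of fat-5, 59.0 CPM of fat-7 and 64.8 CPM of warf-1. Without it DESeq2 called 24 genes in the interaction, 18 of the 22 among them, and fat-5 (5.45), fat-7 (5.74) and warf-1 (6.65) kept the call, while farl-11, tts-1, Y37H2A.14 and C54E4.5 lost it.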

How the results depend on the processing

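The limma count of 0 genes in the untreated comparison stayed at 0 with pseudocounts of 0.5 and 5, a filter of 20 CPM, TMM scaling, the compared libraries only, no trend, edgeR, and without any 1 library (range 0 to 0). It was 6 at an adjusted p under 0.05, 9 without the filter on low values and 85 with DESeq2. With methionine the count of 0 became 3 with DESeq2, and for the interaction it became 1 without the filter and 22 with DESeq2. The untreated count of 6 genes at an adjusted p under 0.05 was 22 without the filter, 3 with the filter of 20 CPM and 0 on the compared libraries only, and lay between 0 and 3 when 1 library was left out. The DESeq2 count of 85 lay between 41 (without replicate 1 of wild type) and 268 (without replicate 1 of Δnhr-114), and 25 of the 85 genes were called without each of the 4 compared libraries in turn. The DESeq2 interaction count of 22 lay between 12 (without replicate 2 of Δnhr-114 with methionine) and 44 (without replicate 1 of untreated Δnhr-114). The cause of these differences was not tested. Replicate numbers did not pair the 4 compared samples: the deviations of same-numbered untreated wild type and Δnhr-114 libraries correlated at -0.055. Over the other pairs of groups in the fit the correlations were larger in size. They ran from -0.655 (Δnhr-114 untreated and with methionine) to 0.311 (wild type with methionine and untreated Δnhr-114). A fit with the replicate number as a block called 0 genes at an adjusted p under 0.01, 0 at 0.05 and 380 at an unadjusted p under 0.05. For 98 single genes, 1740 values were computed under alternatives and 0 reversed in sign. These genes included the 85 called, of which 82 were set apart, so for most of them a reversal was hardly possible. Of the 1740 values, 94 passed the thresholds where the main test did not, 85 of them with DESeq2 and 9 without the filter. With 2 libraries a group, leaving 1 out assumes that the lone library varies like the other groups. A gene under 0.267 CPM in Δnhr-114 cannot be told from 0.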

Other observations

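The 85 genes called by DESeq2 were spread over the chromosomes, with 30 of 1972 genes tested on V (1.52%), 15 of 1921 on IV (0.781%), 13 of 1847 on II (0.704%), 11 of 1465 on X (0.751%), 10 of 1888 on I (0.53%) and 6 of 1835 on III (0.327%). Chromosome V, which carries nhr-114, had the highest share. Within 1 Mb of nhr-114, 169 genes were tested and 4 were called (2.37%): nhr-114 itself and C49G7.7, cyp-33C8 and rips-1. Over all genes 0.475% were called higher and 0.301% lower. The deleted gene itself is among the 4, so the share is that of very few other genes. cyp-33C8, a cytochrome P450 gene, had 2.17 and 6.08 CPM in wild type against 39.7 and 20.1 CPM in Δnhr-114, and C49G7.7 at 2.75 and 1.27 CPM against 23.8 and 8.51 CPM. The call of cyp-33C8 was lost without replicate 2 of Δnhr-114 (DESeq2 adjusted p = 0.0114). rips-1 went the other way, at 294 and 185.0 CPM against 45.6 and 14.4 CPM. These shares are a description with no test.

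Several called genes were low in wild type. sdz-35 had 0.362 and 1.10 CPM in wild type against 12.9 and 20.7 CPM in Δnhr-114, and T07D10.3 at 0.868 and 1.27 CPM against 11.7 and 12.3 CPM. sir-2.3, a sirtuin gene, was at 0.868 and 1.52 CPM against 11.3 and 21.6 CPM. tbb-6, a tubulin gene, was at 8.90 and 7.17 CPM against 37.5 and 49.2 CPM. The calls of all 4 genes were lost without replicate 2 of Δnhr-114.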
